A study of Mus musculus with 8 samples.

Results

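Aminoacyl-tRNA synthetases, the enzymes that join each amino acid to its transfer RNA, were followed at the transcript level in mouse gastrocnemius. The 36 genes were chosen by symbol, 20 for cytosolic enzymes and 16, with symbols ending in 2, for mitochondrial enzymes. All 36 were found, each on 1 line, among the 39009 lines and 38741 symbols of the deposited expression table. Gars and Kars give rise to enzymes of both compartments and were counted as cytosolic.

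The samples were 4 wild-type male mice of 9 to 10 weeks (WT1 to WT4) and 4 male mice of 10 to 11 weeks homozygous for the Bcat2tm1.2Clyn allele (KO5 to KO8), all on a C57BL6 background. Bcat2 encodes the mitochondrial aminotransferase that starts the breakdown of leucine, isoleucine and valine in muscle. Mice of both genotypes and their dams could choose between ordinary chow and a purified diet lacking these 3 amino acids, and gastrocnemius was removed under isoflurane. The allele is not described as restricted to muscle. Weights ran from 22 to 25 g in wild type and from 15 to 24 g in knockouts, and a knockout column could not be tied to the weight or age of a single mouse.

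Each synthetase activates its amino acid with ATP and passes it to the 3′ end of the matching tRNA, which then carries it to the ribosome. Cytosolic enzymes supply general protein synthesis, and several of them sit in a multisynthetase complex with scaffold proteins. Separate enzymes, encoded in the nucleus and imported, charge the tRNAs used to make the mitochondrially encoded respiratory chain subunits. Uncharged tRNA activates the kinase GCN2, which acts through eIF2 on the transcription factor ATF4, and many cytosolic synthetase genes are known ATF4 targets.

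Values are FPKM, which count fragments relative to exon length and to the size of the library, so levels can be set side by side between genes. Bcat2 itself read 53.2 ± 19.9 FPKM in the wild-type mice and 3.29 ± 1.37 FPKM in the knockout mice (SD, n = 4 each). Library depth relative to WT2, inferred from low FPKM, ran from 0.435 in WT4 to 1.22 in WT3, and read totals are unknown. Fast-muscle markers summed to between 46101 and 60878 FPKM in every mouse. The 6 adipocyte markers summed to 15321 FPKM in WT1 and 8060 FPKM in KO6, against 608 to 2006 FPKM in the other 6 mice, and the 5 keratinocyte markers to 464 FPKM in KO6 and 1.16 to 2.64 FPKM elsewhere. Schwann cell markers (5 genes) summed to 49.2 to 92.2 FPKM in wild type and to 179, 122, 122 and 73.5 FPKM in KO5 to KO8. Endothelial markers (4 genes) summed to 34.5 to 57.2 FPKM in wild type and 19.5 to 40.1 FPKM in knockouts, lowest in KO8, where fibroblast markers (324 FPKM against 356 to 546 FPKM elsewhere) were lowest too. Slow-muscle markers summed to 75.7 FPKM in WT2 and 220 to 700.0 FPKM in the other mice. The part of these markers in the results was not tested. In bulk muscle, fewer cells of a type and less RNA per cell cannot be told apart.

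No synthetase gene passed the threshold between genotypes. Nearly all of them nevertheless had a lower mean in knockouts, 20 of 20 cytosolic and 14 of 16 mitochondrial genes, the exceptions being Fars2 and Yars2. Differences are given on the log2(FPKM + 1) scale as knockout minus wild type, a scale that makes changes of genes with low FPKM look smaller. The median difference was -0.22 for cytosolic and -0.22 for mitochondrial genes, while the median of all 11118 genes tested was -0.12 and 63.6% of them were below 0. Of the 36 members, 29 lay below that all-gene median. With 0.1 in place of 1 added to the FPKM, the median difference was -0.25 for cytosolic and -0.30 for mitochondrial genes, beside -0.15 for all genes. Genes were tested with limma where the mean was at least 1 FPKM, which 35 members met and Wars2 did not.

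At an adjusted p under 0.05 limma called 0 of the 35 members, and 0.027% of all genes tested. The members' adjusted p ran from 0.48 to 0.968. At an unadjusted p under 0.05 limma gave 4 members lower in knockouts, Eprs, Farsa, Wars and Sars2, and 0 higher, against 7.33% lower and 2.99% higher among all genes. Every knockout lay below every wild-type mouse for 6 of the 35 tested members (17.1%), against 4.68% of all genes tested. These were Eprs, Farsa, Wars, Aars2, Sars2 and Tars2, and Wars2 made 7 of all 36. No member had all knockouts above all wild-type mice, which 2.08% of all genes did. The exact permutation test over the mice gave p = 0.0286 (2-sided) for each of the 7, with no adjustment over the genes. This is the smallest p that 4 against 4 mice allow, and groups that do not overlap always give it. It therefore restates the separation and is no further support.

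**Figure D1:**
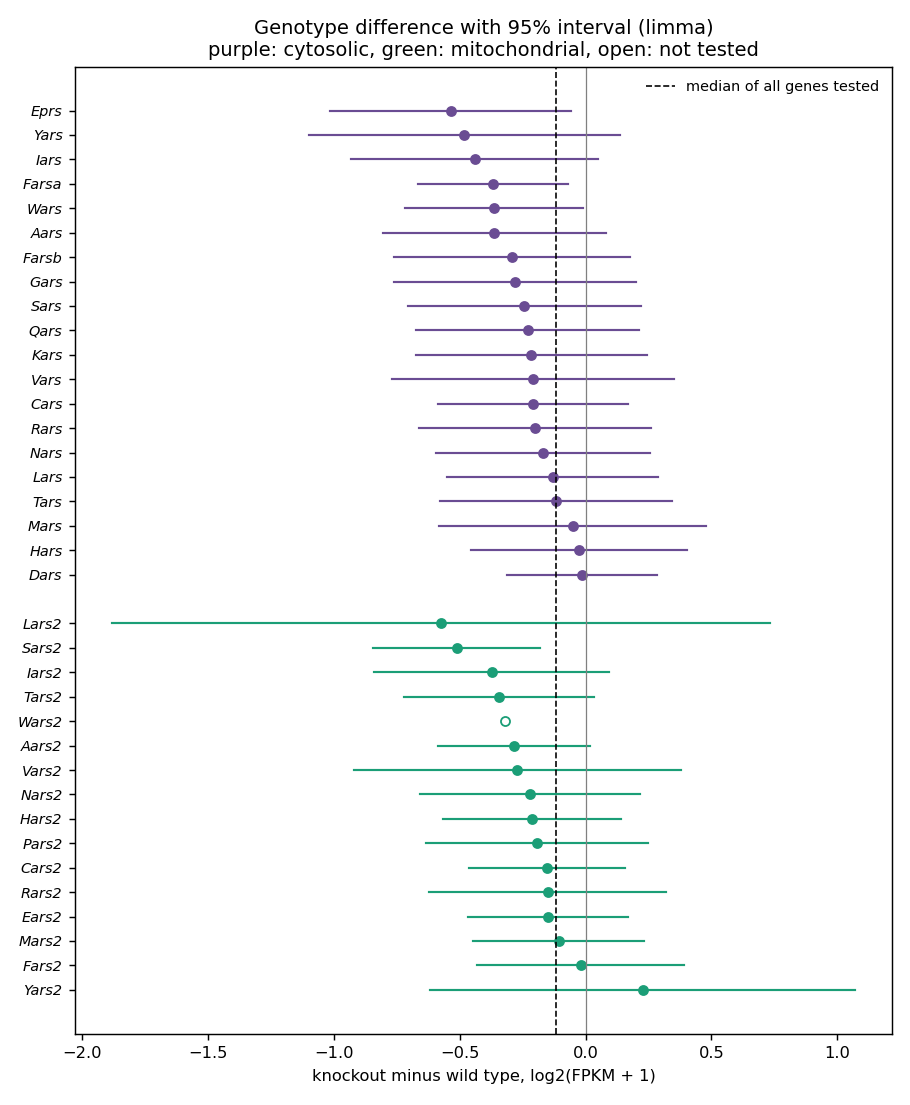
Genotype difference of each synthetase gene, knockout minus wild type on the log2(FPKM + 1) scale (x axis), with 95% intervals from limma as bars; purple points are cytosolic, green points mitochondrial, and the open point is Wars2, which was not tested. Yars2 is the single point above 0, and the dashed line at -0.12 is the median of all genes tested.

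Among the cytosolic enzymes, levels over the 8 mice ran from 4.88 FPKM for Vars to 35.2 FPKM for Dars, with a median of 15.4 FPKM. Dars, the aspartate enzyme, read 35.7, 37.5, 31.4 and 36.7 FPKM in WT1 to WT4 and 30.4, 34.8, 40.03 and 34.9 FPKM in KO5 to KO8. The Dars groups overlapped throughout (difference -0.01, SE 0.13, 95% interval -0.31 to 0.28). Its neighbours in the order of levels, Mars at 32.6 and Sars at 32.0 FPKM, did not differ from it beyond the spread between mice. Mars, the methionine enzyme, read 32.6 ± 3.9 FPKM in the wild-type mice and 32.6 ± 10.4 FPKM in the knockout mice, and Hars, the histidine enzyme, 13.7 ± 1.98 and 13.6 ± 3.25 FPKM (SD, n = 4 each).

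Eprs encodes a single protein with glutamate and proline enzymes joined in 1 chain, and it is part of the multisynthetase complex (mm10 chromosome 1, 185363095 to 185428355). It read 21.9, 24.9, 35.98 and 24.5 FPKM in the wild-type mice and 19.3, 20.5, 20.4 and 12.6 FPKM in the knockout mice. The groups did not overlap, with WT3 far above the other wild-type mice and KO8 far below the other knockouts. The knockout mean was 67.9% of the wild-type mean, a difference of -0.53 (SE 0.21, limma unadjusted p = 0.0326, adjusted p = 0.48).

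Farsa encodes the alpha subunit of the cytosolic phenylalanine enzyme (chromosome 8, 84856989 to 84869257). Its levels were 10.5, 8.98, 10.5 and 8.99 FPKM in the wild-type mice and 7.20, 8.41, 7.61 and 6.13 FPKM in the knockout mice. All 4 knockouts were below the lowest wild-type mouse, and the difference was -0.37 (SE 0.13, limma unadjusted p = 0.021, adjusted p = 0.48). The beta subunit, Farsb, read 15.9, 16.004, 24.5 and 16.9 FPKM in the wild-type mice and 15.1, 17.0, 16.9 and 10.3 FPKM in the knockout mice. Apart from WT3 and KO8 the Farsb values of the 2 groups were interleaved, and its difference was -0.29 (SE 0.21, limma adjusted p = 0.568). Whether the differences of the 2 subunits differ from each other was not tested.

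Wars, the tryptophan enzyme (chromosome 12, 108860030 to 108894174), read 9.90, 9.16, 12.2 and 9.48 FPKM in the wild-type mice and 7.94, 8.66, 8.45 and 5.85 FPKM in the knockout mice. The highest knockout, KO6, was below the lowest wild-type mouse, WT2. The difference was -0.36 (SE 0.16, limma unadjusted p = 0.0451, adjusted p = 0.482). Yars, the tyrosine enzyme, had a larger mean difference (-0.48, SE 0.27, limma adjusted p = 0.504), but its wild-type values spread from 12.1 to 24.0 FPKM and KO5, at 17.2 FPKM, lay inside that range.

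The mitochondrial enzymes were lower in level, with a median of 4.29 FPKM over the class. Lars2 stood apart at 217 FPKM, 12.9 times the next mitochondrial gene, Yars2 at 16.9 FPKM, and the lowest was Wars2 at 0.802 FPKM. No member of either class was listed at 0 in any mouse. Sars2, the mitochondrial serine enzyme (chromosome 7, 28741968 to 28753879), had the smallest unadjusted p of all members. It read 4.63, 4.04, 5.51 and 3.90 FPKM in the wild-type mice and 2.44, 2.76, 3.43 and 2.82 FPKM in the knockout mice. The groups did not overlap, and the knockout mean was 63.4% of the wild-type mean (difference -0.51, SE 0.15, limma unadjusted p = 0.00706, adjusted p = 0.48).

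Aars2, the mitochondrial alanine enzyme (chromosome 17, 45506841 to 45520842), read 4.80, 4.27, 5.67 and 4.45 FPKM in the wild-type mice and 3.90, 3.16, 4.17 and 3.81 FPKM in the knockout mice. Its groups were separated by the narrow gap between KO7 and WT2 (difference -0.28, SE 0.13, limma unadjusted p = 0.062, adjusted p = 0.484). Tars2, the mitochondrial threonine enzyme (chromosome 3, 95739976 to 95754977), read 9.35, 7.07, 10.7 and 7.18 FPKM in the wild-type mice and 7.06, 6.92, 6.77 and 5.19 FPKM in the knockout mice. Only 7.07 FPKM in WT2 against 7.06 FPKM in KO5 kept the Tars2 groups apart (difference -0.34, SE 0.17, limma adjusted p = 0.484).

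Wars2, the mitochondrial tryptophan enzyme (chromosome 3, 99141068 to 99239186), was below the level filter and had no limma test. Its values were 0.949, 0.817, 1.49 and 0.772 FPKM in the wild-type mice and 0.572, 0.746, 0.620 and 0.448 FPKM in the knockout mice. Here too every knockout lay below every wild-type mouse, with WT4 and KO6 close together. Yars2, the mitochondrial tyrosine enzyme, was the only member with a difference above 0 (0.23, SE 0.37, limma adjusted p = 0.786). It was uneven within both genotypes, from 8.89 to 22.9 FPKM among wild-type mice and 9.40 to 23.7 FPKM in the knockout mice.

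**Figure D2:**
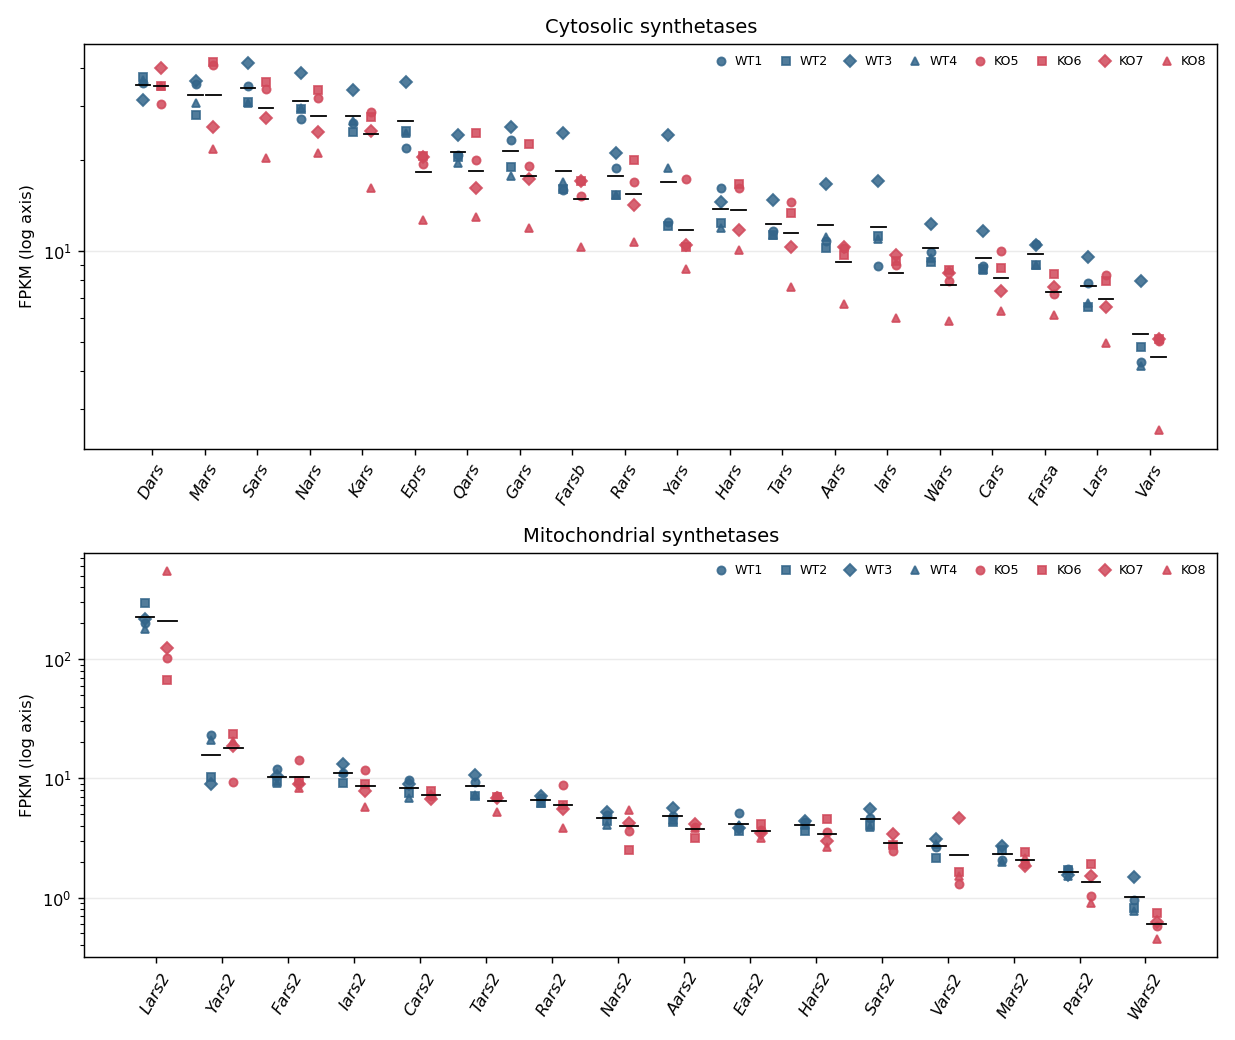
FPKM of each synthetase gene in each mouse on a log axis, cytosolic genes above and mitochondrial genes below, ordered by mean level; blue symbols are wild type, red symbols knockouts, 1 symbol shape per mouse of a genotype, and bars are genotype means. WT3 (blue diamonds) tops and KO8 (red triangles) closes most cytosolic columns, and Lars2 stands above all other genes.

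The enzymes for leucine, isoleucine and valine, the amino acids that Bcat2 breaks down, were compared as a group of 6. All 6 differences were below 0, with a median of -0.32, or -0.20 relative to all genes tested. The relative value was -0.04 without KO6 and -0.31 without KO7. The 3 cytosolic genes had a median of -0.21, against -0.23 for the other 17 cytosolic genes. The 3 mitochondrial genes, Lars2 among them, had -0.37, against -0.22 for all 16 mitochondrial genes. With all 8 mice none of the 6 had an unadjusted limma p under 0.05, their adjusted p ran from 0.484 to 0.748, and none had groups that did not overlap. Iars had groups apart without WT1 and KO6, and Lars2 without WT3 and KO8.

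Lars, the cytosolic leucine enzyme and a component of the multisynthetase complex (chromosome 18, 42202350 to 42262122), read 7.81, 6.52, 9.56 and 6.71 FPKM in the wild-type mice and 8.34, 7.96, 6.52 and 4.96 FPKM in the knockout mice. KO5 and KO6 were above 3 of the 4 wild-type mice, and the difference was -0.13 (SE 0.18, 95% interval -0.55 to 0.29). Without KO8 the Lars difference was 0.000148, without WT3 it was -0.03, without KO5 -0.22, and without both WT3 and KO8 it was 0.10.

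Iars, the cytosolic isoleucine enzyme (chromosome 13, 49682100 to 49734267), read 8.91, 11.2, 16.9 and 11.0 FPKM in the wild-type mice and 8.96, 9.24, 9.68 and 6.01 FPKM in the knockout mice. Only WT1 kept the 2 groups from separating, and the difference was -0.44 (SE 0.21, 95% interval -0.93 to 0.05, limma unadjusted p = 0.0722). Without WT3 it was -0.27. Vars, the cytosolic valine enzyme (chromosome 17, 35000987 to 35016322), read 4.31, 4.81, 7.95 and 4.18 FPKM in the wild-type mice and 5.03, 5.12, 5.10 and 2.55 FPKM in the knockout mice. The Vars difference was -0.21 (SE 0.25), -0.03 without WT3 and -0.02 without KO8. Without both mice every knockout was above every wild-type mouse, as for 4.41% of all genes, and the difference was 0.17.

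Iars2, the mitochondrial isoleucine enzyme (chromosome 1, 185284726 to 185329396), read 11.1, 9.10, 13.1 and 11.3 FPKM in the wild-type mice and 11.7, 8.94, 7.82 and 5.78 FPKM in the knockout mice. KO5 lay within the wild-type range and the other 3 knockouts below it (difference -0.37, SE 0.20, 95% interval -0.84 to 0.09), and without KO8 the difference was -0.22. Vars2, the mitochondrial valine enzyme (chromosome 17, 35655634 to 35667592), read 2.67, 2.13, 3.12 and 2.83 FPKM in the wild-type mice and 1.30, 1.65, 4.60 and 1.51 FPKM in the knockout mice. Thus 3 knockouts were below all wild-type mice and KO7 was above them all (difference -0.27, SE 0.29, 95% interval -0.92 to 0.38). The difference was -0.56 without KO7, -0.14 without KO5 and -0.18 without KO8.

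Lars2, the mitochondrial leucine enzyme (chromosome 9, 123366940 to 123462664), was the most abundant and most variable member. It read 202, 297, 216 and 179.9 FPKM in the wild-type mice and 103, 66.8, 123 and 549 FPKM in the knockout mice. KO5, KO6 and KO7 were below all wild-type mice, and KO8 was above them all. With all mice the difference was -0.57 (SE 0.57, 95% interval -1.88 to 0.73, limma adjusted p = 0.645). Without KO8 the knockout mean was 97.8 ± 28.7 FPKM (SD, n = 3) and the difference -1.20, while without KO6 the difference was -0.20. Lars2 alone made up from 43.5% of the summed FPKM of the 16 mitochondrial genes in KO6 to 88.1% in KO8.

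A stretch of 72 bases in the 3′ UTR of Lars2, in exon 21 of 21 of transcript Lars2-201 (chromosome 9, 123462048 to 123462119), was 98.6% identical to Gm15564, an antisense RNA gene elsewhere in the genome. Gm15564 read 52.5, 72.8, 48.9 and 47.7 FPKM in the wild-type mice and 25.9, 14.2, 37.0 and 238 FPKM in the knockout mice. Its values followed those of Lars2 from mouse to mouse, with both lowest in KO6 and highest in KO8. Over the 8 mice Pearson's r on the log2(FPKM + 1) scale was 0.98 (permutation p = 7.44e-05) and Spearman's rho 0.976 (permutation p = 0.000397). Without KO6 and KO8, the mice farthest from the median, r was 0.973 (exact permutation p = 0.00417) and rho 0.943 (exact permutation p = 0.0167), n = 6. This pair was chosen after its values were seen. These p-values therefore describe the pair and support nothing further. Per the labels' protocols only uniquely mapped reads were counted, so reads of the stretch that matched both genes equally would have been left out. The part of the stretch in the Lars2 values was not tested.

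**Figure D3:**
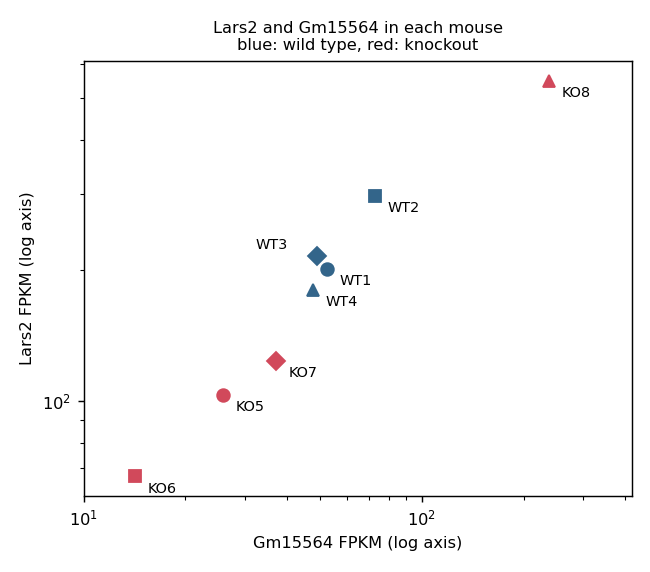
FPKM of Lars2 (y axis) against FPKM of Gm15564 (x axis) in each mouse, both on log axes; blue symbols are wild type and red symbols knockouts. The 8 mice lie along a rising line from KO6, at 66.8 FPKM of Lars2, to KO8, at 549 FPKM.

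Extreme values of the cytosolic genes fell mostly in the same 2 mice. WT3 held the highest value of the 8 mice for 15 of 20 cytosolic genes and for 6 of 16 mitochondrial genes, against 33.5% of all genes tested. KO8 held the lowest value for 19 of 20 cytosolic genes, all but Dars, and for 8 of 16 mitochondrial genes, against 50.5% of all genes tested. The class level in a mouse was taken as the median, over the genes of the class, of the deviation from the 8-mouse mean on the log2(FPKM + 1) scale.

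For the cytosolic class this level was 0.04, -0.02, 0.39 and 0.02 in WT1 to WT4 and 0.07, 0.10, -0.13 and -0.56 in KO5 to KO8. KO5 and KO6 were above 3 of the 4 wild-type mice, so the groups overlapped. The same measure over all genes was -0.35 in KO8 and 0.16 in WT3. After the all-gene level of each mouse was subtracted, the cytosolic level was 0.23 in WT3 and -0.21 in KO8. The other wild-type mice then ran from -0.07 to 0.06 and the other knockouts from -0.07 to 0.09, so the groups still overlapped. The part of these library-wide shifts in the cytosolic values was not tested. Without both WT3 and KO8 the cytosolic median difference was -0.005, with 10 of 20 genes below 0 against 47.3% of all genes, while it was -0.08 without KO8, -0.14 without WT3 and -0.34 without KO6.

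For the mitochondrial class the level was 0.17, -0.01, 0.24 and 0.02 in wild type and -0.12, -0.07, -0.12 and -0.27 in knockouts. These groups did not overlap. Without WT3 and KO8 the mitochondrial median difference was -0.12, with 14 of 16 genes below 0 and an all-gene median of 0.01. Relative to all genes tested it was -0.10 with all mice and -0.008 without KO6, where the median was -0.20 for the class and -0.20 for all genes. After the all-gene level of each mouse was subtracted, KO8 moved to 0.08, the top of the 8 mice, while the other knockouts ran from -0.21 to -0.06 and wild type from 0.05 to 0.08. Leaving out Lars2 changed the range of the mitochondrial level in knockouts only to -0.27 to -0.05.

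The cytosolic minus mitochondrial level ran from -0.14 to 0.15 in wild type and from -0.29 to 0.18 in knockouts, with means of 0.001 ± 0.12 and 0.01 ± 0.22 (SD, n = 4 each). The genotypes overlapped in this difference between the classes. The level of the leucine, isoleucine and valine enzymes ran from -0.02 to 0.39 in wild type and from -0.55 to -0.03 in knockouts, separated by the small gap between WT2 and KO5. Without WT3 and KO8 the median difference of these 6 genes was -0.13, with 4 of 6 below 0.

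**Figure D4:**
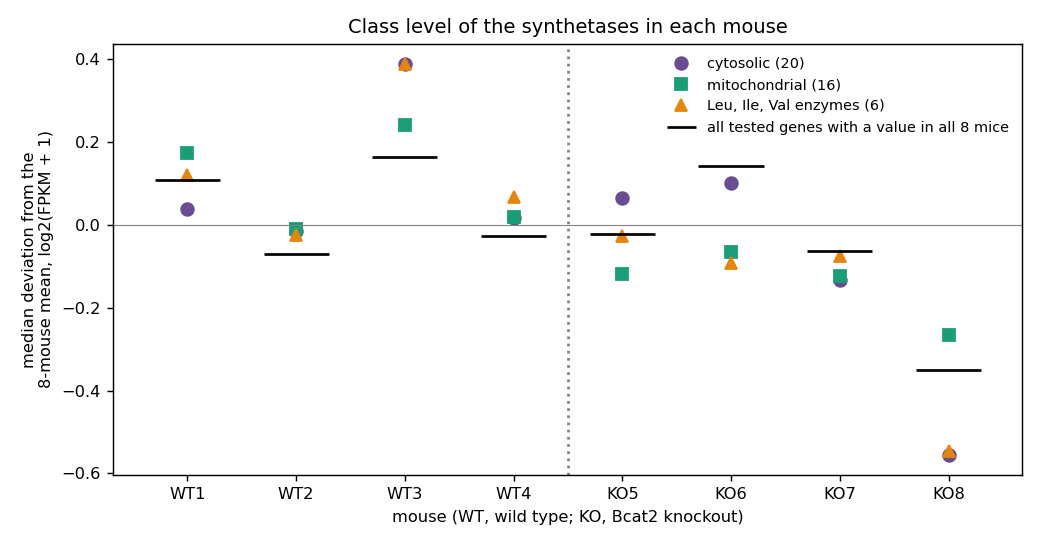
Class level in each mouse, as the median deviation from the 8-mouse mean on the log2(FPKM + 1) scale (y axis), for the cytosolic (20 genes), mitochondrial (16) and leucine, isoleucine and valine (6) enzymes; black lines are the same measure over all genes tested with a value in all 8 mice. WT3 (0.39) and KO8 (-0.56) set the cytosolic extremes, and the mitochondrial squares are lower in all 4 knockouts than in any wild-type mouse.

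The separation of the genotypes was also counted under 1 other scaling and without 2 pairs of mice. With median-ratio scaling between libraries, which moved the all-gene median from -0.12 to -0.002, Farsa, Wars, Sars2 and Tars2 still had groups apart among the tested members (4 of 35, 11.4%, against 2.85% of all genes lower). Aars2 and Eprs overlapped in that setting. Groups that are apart stay apart when mice are left out, so the 6 members apart with all mice count again without either pair. The shares without a pair are therefore no separate check, and for these 6 only the size of the differences is informative. Without WT3 and KO8 the difference of Eprs was -0.23, of Wars -0.17, of Tars2 -0.15, of Aars2 -0.22, of Farsa -0.26 and of Sars2 -0.43. Lars2 also came apart, for 7 of 35 in all (20%, against 5.42%). Without WT1 and KO6, the mice with the fat transcripts and, in KO6 only, skin transcripts, the tested members with groups apart numbered 9 of 35 (25.7%, against 13.2%). In that setting the cytosolic median difference was -0.34 and the mitochondrial one -0.21, beside an all-gene median of -0.15.

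Within the cytosolic class, the 8 genes of the multisynthetase complex, Eprs, Iars, Lars, Mars, Qars, Rars, Kars and Dars, had a median difference of -0.21, and the 12 genes outside it -0.26. The complex genes were the more abundant, with a median of 21.1 FPKM against 12.7 FPKM. Synthetases also fall into 2 structural classes with unrelated catalytic folds. Over both compartments the 18 class I genes had a median difference of -0.21 and the 17 class II genes -0.22, with Eprs belonging to both.

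For 13 amino acids both the cytosolic and the mitochondrial enzyme were among the members. The cytosolic gene had the higher wild-type mean in 12 of these 13 pairs, all but leucine, and was the higher of the 2 in every mouse in 9. Mars over Mars2 had the largest wild-type ratio, 14.1, and Iars over Iars2 (1.07) and Yars over Yars2 (1.07) were nearest to equal. By the mean log2 ratio of the mice 5 pairs were lower in knockouts, and by the ratio of the group means 7 were. No pair had groups apart. Wars over Wars2 gave the smallest p, with a ratio of 10.1 in wild type and 13.0 in knockouts (exact permutation p = 0.0571, 0.557 after Benjamini-Hochberg adjustment over 13 pairs).

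**Figure D5:**
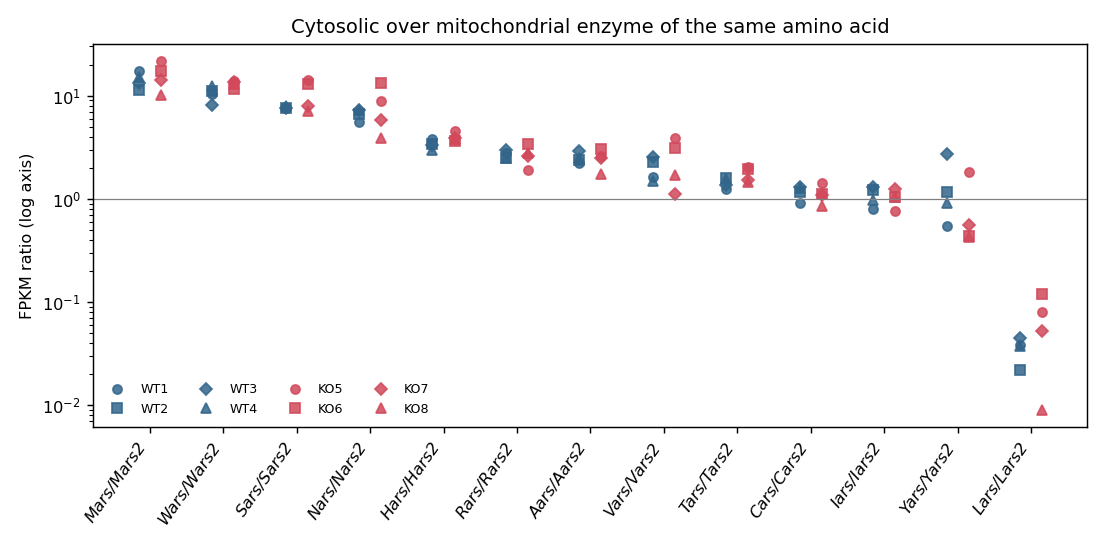
FPKM ratio of the cytosolic to the mitochondrial enzyme of the same amino acid in each mouse (y axis, log scale) for 13 pairs; blue symbols are wild type and red symbols knockouts. The ratio lies above 1 in every mouse for 9 pairs, and only Lars over Lars2 is below 1 in every mouse.

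Other genes of tRNA charging and its stress response were taken from fixed lists. Of 52 such genes, 46 had a mean of at least 1 FPKM and were tested, limma called 0 at an adjusted p under 0.05, and 6 were lower and 2 higher at an unadjusted p under 0.05, against 7.33% lower and 2.99% higher among all genes. Of 4 genes for the mitochondrial amidotransferase, which makes glutaminyl-tRNA in place of a mitochondrial glutamine synthetase, and for formylation, 3 were among the 6 lower. Qrsl1, the catalytic amidotransferase subunit, read 6.71, 5.49, 8.85 and 7.14 FPKM in the wild-type mice and 3.85, 4.62, 5.13 and 3.42 FPKM in the knockout mice, with groups apart (difference -0.61, SE 0.17, limma unadjusted p = 0.006, adjusted p = 0.48). Gatc, another subunit, read 13.5 ± 2.29 and 9.94 ± 1.94 FPKM with groups apart, and Pet112, the remaining subunit, 7.62 ± 1.05 and 5.65 ± 0.318 FPKM with overlap (SD, n = 4 each). Mtfmt, the formyltransferase, overlapped at 2.87 ± 0.518 and 2.502 ± 0.592 FPKM.

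The scaffolds of the multisynthetase complex lay above the all-gene median, 3 of 3. Eef1e1 read 28.4 ± 7.60 FPKM in the wild-type mice and 39.4 ± 6.35 FPKM in the knockout mice (limma unadjusted p = 0.0624), Aimp1 103 ± 15.4 and 124 ± 13.2 FPKM, and Aimp2 175 ± 25.5 and 171 ± 30.6 FPKM (SD, n = 4 each). Among the factors that carry charged tRNA to the ribosome, Eef1a2, the muscle elongation factor, and Tufm, its mitochondrial counterpart, were lower at an unadjusted p under 0.05, and Eef1b2, an exchange factor subunit, was higher. Tufm read 18.7 ± 4.29 and 12.8 ± 1.61 FPKM, and Eef1b2 403 ± 77.0 and 614 ± 178 FPKM (SD, n = 4 each).

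Elac1, an enzyme of tRNA end processing, read 2.43 ± 0.409 FPKM in the wild-type mice and 1.52 ± 0.399 FPKM in the knockout mice with groups apart (SD, n = 4 each, limma unadjusted p = 0.0359). The genes with the smallest p of the remaining lists were Tarsl2, a second cytosolic threonine enzyme, Aarsd1, a proofreading protein, Eefsec, the selenocysteine elongation factor, and Eif2ak1, an eIF2 kinase (limma unadjusted p = 0.218, 0.102, 0.131 and 0.176). Eif2ak1 was listed at 0 FPKM in KO8 and at 6.78 to 7.91 FPKM in the other knockouts. Eif2ak4, the gene of GCN2 (mean 0.721 FPKM), and Eif2ak2 (0.839 FPKM) were below the level filter and not tested. Atf4 read 98.3 ± 12.8 FPKM in the wild-type mice and 100.1 ± 26.0 FPKM in the knockout mice (SD, n = 4 each). Its 17 tested list members, Atf4 included, had a median difference of 0.23, with 4 below the all-gene median. Several of them were highest in KO6 and others in other mice of either genotype. Trib3 read 9.04 FPKM in KO6 and 0.342 to 1.44 FPKM in the other knockouts. Psat1 read 15.3 FPKM in KO6 and 11.9 FPKM in WT1. The part of KO6 in the median of this list was not tested. Ddit4, an inhibitor of mTORC1 signalling, was the only one with an unadjusted p under 0.05, at 3.64, 3.61, 4.77 and 3.16 FPKM in the wild-type mice and 12.4, 22.0, 5.95 and 4.85 FPKM in the knockout mice (limma unadjusted p = 0.0192, adjusted p = 0.48). Asns, the asparagine synthetase gene often read as an ATF4 target, had its highest values in WT1 (6.12 FPKM) and KO6 (6.54 FPKM), the 2 mice with the adipocyte transcripts, whose part in these values was not tested.

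Because many cytosolic synthetase genes are known ATF4 targets, the members' promoters were searched on both strands for TGATGNAAN, the C/EBP-ATF response element, and for TGACGTCA and CACGTG. Aars aside, whose match positions are not reported here, no match of one of these overlapped a match of another in a member's promoter. RefSeq promoters (GRCm38.p6, the assembly that mm10 names), of 250 bases before and 50 after the start, were found for 26 of 36 members, 12 cytosolic and 14 mitochondrial, and not used for Cars, Hars, Lars, Mars, Nars, Rars, Vars, Wars, Hars2 and Pars2. TGATGNAAN was present in 5 of 12 cytosolic promoters (Aars, Gars, Iars, Tars and Yars), in 0 of 14 mitochondrial ones, in 7 of 20 promoters of the ATF4 list, and in 3.95% of all promoters of that length. CACGTG was present in 4 of 12 cytosolic promoters (Aars, Farsb, Iars and Tars), 1 of 14 mitochondrial ones (Ears2) and 7.15% of all promoters, and TGACGTCA in 0 of 26 and 1.79%. Windows around matches upstream of the start in Gars, Tars, Farsb and Iars are shown 5′ to 3′ on the strand of the gene, with the match in capitals, first TGATGNAAN, read here from the opposite strand, and then CACGTG:
Gars (chr6:55037959-55037988, plus strand): ctggctgcgctATTTCATCAtgcaccgggc
Tars (chr15:11399659-11399685, minus strand): ccaggagtcccGTTGCATCAgctggtt
Farsb (chr1:78488921-78488947, minus strand): tagacaggcatCACGTGagacagccca
Iars (chr13:49682050-49682076, plus strand): accaatcgccaCACGTGttgtttgtag

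The TGATGNAAN match began 31 bases before the start in Gars and 16 in Tars. These matches describe letters in the window and not bound factors. The genotype differences of the genes with such a match were -0.12 for Tars, -0.28 for Gars, -0.36 for Aars, -0.44 for Iars and -0.48 for Yars, and none of these passed the threshold. Aars read 10.8, 10.2, 16.6 and 11.1 FPKM in the wild-type mice and 10.2, 9.65, 10.3 and 6.68 FPKM in the knockout mice, with WT3 far above and KO8 far below the rest.

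The TruSeq RNA v2 kit does not mark strand, so reads from overlapping exons cannot be told apart. Aars shares 1326 exon bases with Exosc6 on its own strand, Iars2 shares 2034 with Rab3gap2 on the opposite strand, Fars2 501 with Nrn1, Vars2 465 with Gm20483, Cars2 422 with Naxd, and Hars and Hars2 share 195 with each other. Nars2 shares 284 with C230038L03Rik, Farsb 248 with Sgpp2 and Cars 211 with Gm15580. Smaller overlaps were found for Ears2 (89 bases), Mars (68 bases) and Yars (30 bases). Besides Lars2, stretches of at least 50 bases at 95% identity or more were shared by Iars with 36 other genes and by Wars2 with 6. Values of genes with overlapping exons are uncertain to the extent of the overlap. Reads that matched several genes equally would not have counted as uniquely mapped, and the part of the shared stretches was not tested. In the authors' deposited table, Eprs, Yars and Lars2 (3 members) carry the authors' flag for p below 0.05, against 20.2% of the genes tested, and 0 carry the flag at 0.001.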

How the data were processed

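Per the labels' protocols, libraries were made with the TruSeq RNA v2 kit, which does not mark strand, from RNA of integrity number over 7, read for 50 cycles from one end and aligned to mm10 with TopHat 2.0.9. The authors computed FPKM with Cufflinks from uniquely mapped reads, per the labels' protocols, which give another version than the submitters' processing notes (2.2.1). Neither gene models nor the strand setting of the counting is given in the sources used here. Per the file headers, FPKM were deposited per mouse. The deposited flags of 0 or 1 mark the authors' own p-value thresholds.

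Per symbol the highest-mean line was used. Genes with a mean of at least 1 FPKM were fitted with limma-trend 3.58.1 (R 4.3.3) on log2(FPKM + 1) with genotype as the only term, 2-sided, with Benjamini-Hochberg adjustment over 11118 genes and a threshold of 0.05. The code was tested on simulated data. Single genes and ratios were also given an exact permutation test over the 8 mice (70 labelled splits). The limma p-values set the genotype difference against the spread between these mice, and these permutation p-values rank it among the splits. Class medians are descriptions without a test. Depth relative to WT2 came from the mode of FPKM ratios of genes under 0.3 FPKM. Shared stretches were found with BLAST+ 2.17.0 against GENCODE transcripts. The promoter windows of Aars are not reported here. Other steps used scipy 1.17.1, pandas 2.3.3 and matplotlib 3.10.9 under Python 3.11.15.

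The members and lists were chosen with earlier results of these data known. Values in every mouse are given for the 6 leucine, isoleucine and valine enzymes, members with an unadjusted p under 0.05 or groups apart, and the highest and lowest of each class. Of the other lists, genes past the threshold or else the one with the smallest p are named. Any further gene was picked with its values in view. Alternatives were pseudocounts of 0.1 and 0.5, no filter or a mean of at least 5 FPKM, median-ratio and quantile scaling, summed lines per symbol, FPKM of 0 as missing, array weights, robust eBayes, each mouse left out, and WT1 with KO6 left out. Leaving out WT3 with KO8 was added after seeing the data.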

Additional observations from a re-analysis of the deposited data

Results flagged for a closer look

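Within groups of 4 mice, a single mouse stood far from the other 3 in 13 of 78 groups checked, by Dixon's 95% criterion, which chance meets in about 1 in 20 groups. WT3 was far above the other wild-type mice for Aars (16.6 FPKM), Cars (11.7 FPKM), Farsb (24.5 FPKM), Tars (14.7 FPKM) and Vars (7.95 FPKM) and for the cytosolic class level (0.39). KO8 was far below the other knockouts for Aars (6.68 FPKM), Eprs (12.6 FPKM), Vars (2.55 FPKM) and Tars2 (5.19 FPKM) and for the level of the leucine, isoleucine and valine enzymes (-0.55). It was far above them for Lars2 (549 FPKM). KO7 was far above the other knockouts for Vars2 (4.60 FPKM). Of these 13 values, 12 thus came from WT3 and KO8, and the groups share these mice and are not independent of each other.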

How the results depend on the processing

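Limma called 0 members at an adjusted p under 0.05 in all 20 alternatives. The count of members lower at an unadjusted p under 0.05 was 2 with a mean of at least 5 FPKM, and 2 to 5 with each mouse left out, the 2 being without WT3. No member was higher at that level in any alternative. Sars2 stayed under an unadjusted 0.05 in all 19 alternatives that tested it, Farsa in 18 of 20, Eprs in 17 of 20 and Wars in 6 of 20. Lars2 came under it in 2 of 20, Iars and Iars2 in 1 of 20 each, Vars2 in 1 of 19, Tars2 in 1 of 20, and Lars, Vars and Aars2 in 0. The mitochondrial median difference was -0.11 with median-ratio scaling, where the all-gene median was -0.002. The sign of Lars turned with array weights (0.028), without KO8 (0.000148) and without WT3 and KO8 (0.10). The sign of Vars turned with array weights (0.014) and without WT3 and KO8 (0.17). The cause of these turns was not tested. No paired analysis was possible because the numbers of the knockout columns match no labelled knockout mouse. Depth could not be turned into read counts, so no counting error is given, and precision rests on 4 mice a group.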
